A study of Mus musculus with 12 samples.

Results

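Cyclic nucleotide phosphodiesterases degrade cAMP and cGMP, and 9 of their genes (Pde4a, Pde4b, Pde4c, Pde4d, Pde3a, Pde3b, Pde7a, Pde8a and Pde10a) are described here, chosen by symbol from the 45777 genes of the deposited gene table. For the 4 Pde4 genes, the 32 transcript models of the deposited transcript table, out of 129299 in all, were examined as well. Messenger RNA was sequenced from mpkCCDc11 cells, a line of mouse kidney cortical collecting duct epithelium, in a study of how TAZ bears on vasopressin regulation of the water channel aquaporin-2. TAZ is the product of Wwtr1 and a coactivator of the Hippo pathway that works through TEAD transcription factors. The 4 groups were cells given TAZ siRNA and dDAVP, control siRNA and dDAVP, TAZ siRNA and vehicle, and control siRNA and vehicle, with 3 libraries each.

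The genotype is labelled TAZ knockdown with the TAZ siRNA and WT with the control siRNA, and cells of passages 11 to 16 were used. All groups had received an siRNA, had grown on semipermeable filters for 3 days and had then spent 24 h without serum and hormones. The agent dDAVP, a vasopressin analogue that acts on the V2 receptor, was applied at 1e-09 M to the basolateral side. Exposures of 15 min, 30 min and 24 h are named for the series, and which of them these libraries had is not stated in the labels. No label says whether the libraries of 1 group are separate cultures, and the p-values speak only to how much these libraries vary, which may be technical. The knockdown was partial. Wwtr1 stood at 114 ± 10.7 CPM (estimated counts scaled to library size after TMM normalisation) in TAZ siRNA cells and 166 ± 6.62 CPM in control siRNA cells with dDAVP (SD, n = 3 each). With vehicle it stood at 116 ± 2.51 CPM in TAZ siRNA cells and 181 ± 4.42 CPM in control siRNA cells. These are log2 fold changes of −0.54 ± 0.05 (SE, adjusted p = 5.54e-06) with dDAVP and −0.63 ± 0.05 (adjusted p = 4e-06) with vehicle.

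When vasopressin binds the V2 receptor on a principal cell, adenylyl cyclase makes cAMP, which activates protein kinase A and leads to insertion of aquaporin-2 in the apical membrane and to its transcription. Phosphodiesterases end that signal by hydrolysing cAMP. The PDE4 enzymes, encoded by 4 genes, are specific for cAMP and are held at anchoring proteins beside protein kinase A, which can phosphorylate and activate their long forms. In rat inner medullary collecting duct, PDE4D has been found with an anchor encoded by Akap7 on vesicles that carry aquaporin-2. PDE7 and PDE8 enzymes also hydrolyse cAMP, with high affinity, PDE3 enzymes hydrolyse cAMP and are inhibited by cGMP, and PDE10A hydrolyses both nucleotides.

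In the deposited table (genome build mm10) the Pde4 genes lay on different chromosomes: Pde4b at chr4:102087332-102607262, Pde4d at chr13:108654177-109955969, Pde4a at chr9:21165700-21213248 and Pde4c at chr8:70723835-70751186. Pde7a lay at chr3:19223108-19311322 and Pde10a at chr17:8525187-8986648. RefSeq promoter windows of GRCm38.p6, which run from 250 bases before an annotated start to 50 after it, existed for 6 of the 9 genes, as 12 windows. The 3 printed here begin the transcript models that held most counts of Pde4b, Pde4a and Pde4c, and so stand beside a large, a small and no called response to dDAVP. All are on the plus strand, given 5′ to 3′, and capitals mark the core of a cAMP response element, TGACG or, on the other strand, CGTCA.
Pde4b, chr4:102569810-102570109, start of NM_001177980: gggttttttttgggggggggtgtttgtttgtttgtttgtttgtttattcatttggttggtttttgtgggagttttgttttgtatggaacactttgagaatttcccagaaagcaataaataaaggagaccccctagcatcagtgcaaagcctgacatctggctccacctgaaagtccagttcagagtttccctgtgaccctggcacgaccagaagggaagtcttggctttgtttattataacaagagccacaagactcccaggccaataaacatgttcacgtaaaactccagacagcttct
Pde4a, chr9:21183851-21184150, start of NM_001310750: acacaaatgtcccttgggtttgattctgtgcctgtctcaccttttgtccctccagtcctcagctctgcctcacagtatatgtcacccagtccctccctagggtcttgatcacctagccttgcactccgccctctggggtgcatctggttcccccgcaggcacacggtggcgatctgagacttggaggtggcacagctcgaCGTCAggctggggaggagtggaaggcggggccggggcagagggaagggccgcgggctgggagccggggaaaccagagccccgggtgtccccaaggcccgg
Pde4c, chr8:70723814-70724113, window in which 5 models start: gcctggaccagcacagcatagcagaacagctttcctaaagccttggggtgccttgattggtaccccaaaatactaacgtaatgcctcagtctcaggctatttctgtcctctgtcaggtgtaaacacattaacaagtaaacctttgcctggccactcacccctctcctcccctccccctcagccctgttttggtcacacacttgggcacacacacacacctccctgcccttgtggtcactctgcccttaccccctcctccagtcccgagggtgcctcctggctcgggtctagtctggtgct
The Pde4a window held the core once, 50 bases before the start, and the Pde4b and Pde4c windows did not hold these letters. None of these 3 windows held the full palindrome TGACGTCA or the TEAD motif GGAATG, which reads CATTCC on the other strand. Among all 32851 windows of the same length, 20.8% held the core, 1.79% the full palindrome, which contains the core, and 14.7% the TEAD motif. Other windows of the same genes read otherwise: that of Pde4a at chr9:21165464-21165763, where NM_183408 and XR_003947813 begin, held the TEAD motif, and that of Pde4b at chr4:102421305-102421604, where no model of the deposited table begins, held the core 34 bases before its start. A match is a description of letters in a window. The window of Pde4d begins a model without counts in these libraries, and so do both windows of Pde10a.

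Of the 9 genes, 6 passed the filter on low counts, as did 15932 of 24656 genes with any count. Pde10a passed it through the dDAVP groups alone, having no count in vehicle, and the members were chosen with earlier results of these data known. The numbers of called members and the medians below are therefore descriptions. With control siRNA, 4 of the 6 tested members were higher with dDAVP (Pde4b, Pde4d, Pde4a and Pde10a) and none was lower, where 19.2% of all tested genes were called, 9.72% higher and 9.48% lower. With TAZ siRNA, the same 4 members were higher with dDAVP, where 10.8% of all tested genes were called, 6.38% higher and 4.41% lower. Pde4c and Pde7a were not called in either comparison, and Pde3a, Pde3b and Pde8a could not be tested. A call is an adjusted p under 0.05 in edgeR's quasi-likelihood test with Benjamini-Hochberg adjustment over all tested genes, which is the test behind every adjusted p below unless another is named. The median log2 fold change of the 6 tested members was 1.36 with TAZ siRNA and 1.63 with control siRNA, with Pde10a as fitted or at its lower bound. Without Pde10a, the median of the other 5 was 0.51 with TAZ siRNA and 0.80 with control siRNA, against 0.00 over all tested genes in both comparisons.

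**Figure D1:**
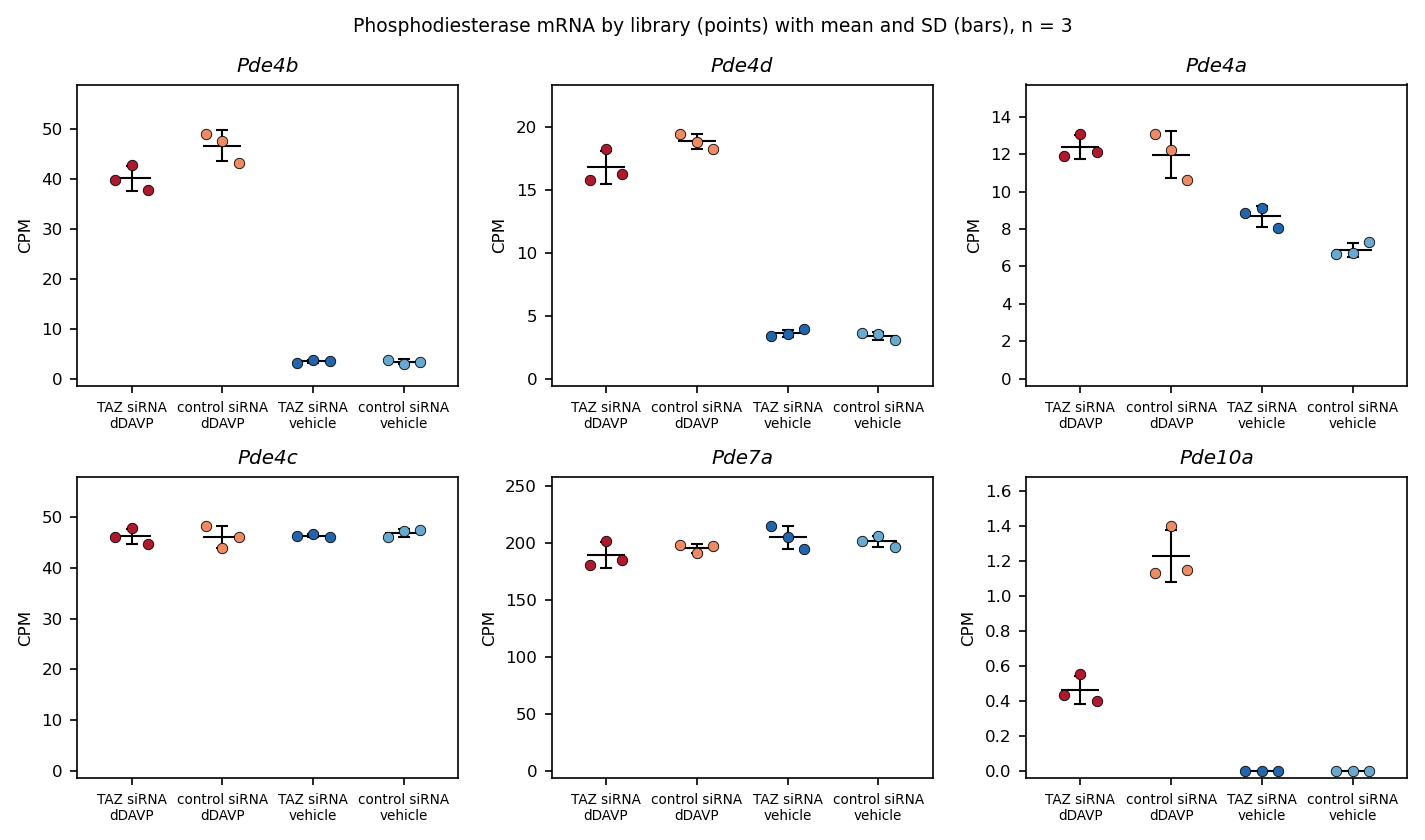
CPM of tested phosphodiesterase genes (y axes, linear, each gene with its own scale) in each library (points) of the 4 groups (x axes), with the mean and SD of 3 libraries as bars. The dDAVP libraries of Pde4b lie between 37.7 and 49.0 CPM, above all vehicle libraries, while the groups of Pde4c overlap.

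Pde4b encodes a cAMP-specific enzyme whose transcription is known, in other cell types, to be induced by cAMP. It stood at 39.7, 42.7 and 37.7 CPM in TAZ siRNA cells with dDAVP, against 3.21, 3.71 and 3.55 CPM in TAZ siRNA cells with vehicle. In control siRNA cells it stood at 49.0, 47.6 and 43.1 CPM with dDAVP, against 3.83, 2.89 and 3.40 CPM with vehicle. Every dDAVP library was far above every vehicle library with either siRNA. The log2 fold change of dDAVP over vehicle was 3.52 ± 0.09 with TAZ siRNA (11.5-fold, adjusted p = 2e-14) and 3.78 ± 0.09 with control siRNA (13.7-fold, adjusted p = 8.03e-15). In bulk RNA, fewer cells that express a gene and less RNA per cell cannot be told apart.

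Pde4d, the family member found with aquaporin-2 vesicles in rat, rose less in fold. With TAZ siRNA it stood at 15.8, 18.3 and 16.3 CPM in dDAVP libraries, against 3.37, 3.59 and 3.92 CPM in vehicle libraries. With control siRNA it stood at 19.5, 18.8 and 18.3 CPM in dDAVP libraries, against 3.67, 3.54 and 3.04 CPM in vehicle libraries. The dDAVP and vehicle ranges were well apart. It amounted to a log2 fold change of 2.21 ± 0.09 with TAZ siRNA (4.62-fold, adjusted p = 1.43e-11) and 2.47 ± 0.09 with control siRNA (5.54-fold, adjusted p = 2.51e-12).

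Pde4a, another cAMP-specific family member, rose by the smallest fold of the 3 Pde4 genes that were called. With TAZ siRNA it stood at 11.9, 13.1 and 12.1 CPM in dDAVP libraries, against 8.87, 9.11 and 8.05 CPM in vehicle libraries. With control siRNA it stood at 13.1, 12.2 and 10.6 CPM in dDAVP libraries, against 6.64, 6.71 and 7.28 CPM in vehicle libraries. Neither pair of groups overlapped. Its log2 fold change was 0.51 ± 0.09 with TAZ siRNA (1.43-fold, adjusted p = 0.000489) and 0.80 ± 0.09 with control siRNA (1.74-fold, adjusted p = 3.14e-06).

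Pde10a, which encodes an enzyme acting on cAMP and cGMP, was detected with dDAVP and not with vehicle. It had 26, 26 and 18 counts in TAZ siRNA cells with dDAVP, against 0 in each TAZ siRNA library with vehicle. Control siRNA cells had 66, 85 and 63 counts with dDAVP, against 0 in each vehicle library. These are low counts, all above those of the vehicle libraries. Set against a floor of 3 counts over the vehicle group and scaled to library totals, the summed dDAVP counts of Pde10a were 28.2-fold higher with TAZ siRNA and 65.7-fold higher with control siRNA. The floor allows for counting error in vehicle alone, and the dDAVP counts were taken without error, so these folds are not strict lower bounds. No p is given for the folds, since the gene entered the test through its dDAVP libraries. The counts fell on transcript models with different starts: XM_006523318 held 66, 81 and 63 of them in control siRNA cells with dDAVP and none in TAZ siRNA cells. In TAZ siRNA cells XM_006523319 held the 26 counts of replicate 1, and XM_006523320 held the 26 of replicate 2 and the 18 of replicate 3. With counts this low, and with the counting tool not given in the sources used here, how they divide among models is uncertain.

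Pde4c, the Pde4 gene with the most mRNA per length in vehicle, did not pass the test in any comparison. It stood at 46.1, 47.8 and 44.8 CPM in TAZ siRNA cells with dDAVP and at 46.2, 46.7 and 46.1 CPM with vehicle. In control siRNA cells it stood at 48.3, 43.9 and 46.0 CPM with dDAVP and at 46.0, 47.2 and 47.5 CPM with vehicle. The ranges overlapped throughout. For dDAVP over vehicle the log2 fold change was 0.00 ± 0.04 with TAZ siRNA (adjusted p = 0.974) and −0.03 ± 0.04 with control siRNA (adjusted p = 0.749).

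Pde7a, which encodes a high-affinity cAMP enzyme outside the PDE4 family, was the most abundant member. With TAZ siRNA it stood at 181, 202 and 185 CPM in dDAVP libraries and at 215, 205 and 195 CPM in vehicle libraries, with overlap. With control siRNA it stood at 198, 191 and 197 CPM in dDAVP libraries and at 202, 206 and 196 CPM in vehicle libraries, also with overlap. The fitted log2 fold change was −0.12 ± 0.04 with TAZ siRNA (adjusted p = 0.0934) and −0.04 ± 0.04 with control siRNA (adjusted p = 0.538). The TAZ siRNA comparison passed the threshold without TAZ siRNA dDAVP replicate 2 (log2 fold change −0.17, adjusted p = 0.0166) and without TAZ siRNA vehicle replicate 3 (−0.16, adjusted p = 0.0293). Of its 8 transcript models, NM_001122759 held between 7232 and 12050 counts a library and each of the others at most 1500.

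The remaining members were at or near 0. Pde3b and Pde8a had 0 counts in every library. Pde3a had 2 counts in control siRNA dDAVP replicate 3 and 2 in TAZ siRNA vehicle replicate 1, and 0 elsewhere. A count of 3 in a library, the limit that a count of 0 allows, was between 0.0486 and 0.0665 CPM. These limits cover counting error only.

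**Figure D2:**
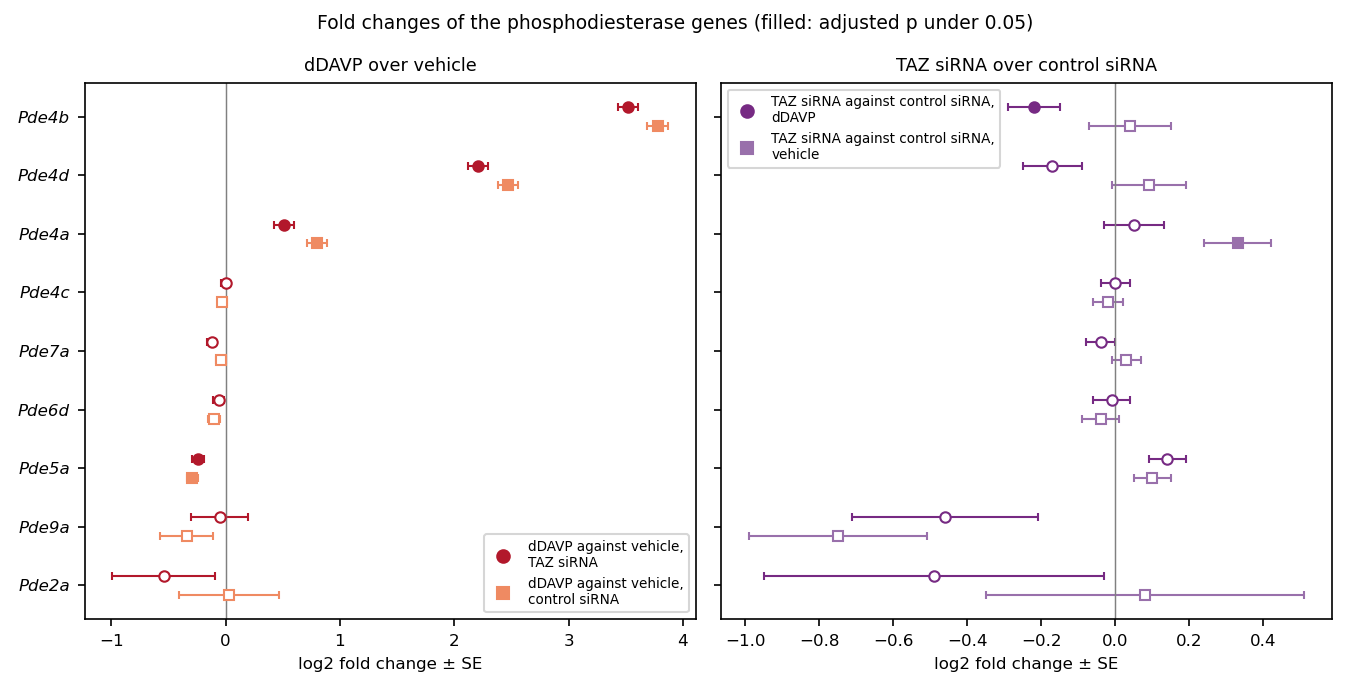
Log2 fold changes (x axes) with SE as bars for tested phosphodiesterase genes other than Pde10a, which has no counts with vehicle (rows), of dDAVP over vehicle with each siRNA in the left panel and of TAZ siRNA over control siRNA with each treatment in the right panel. Filled symbols have an adjusted p under 0.05, and Pde4b reaches 3.52 with TAZ siRNA and 3.78 with control siRNA in the left panel, while the filled symbols of the right panel lie at −0.22 (Pde4b with dDAVP) and 0.33 (Pde4a with vehicle).

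The TAZ siRNA was compared with the control siRNA within each treatment. With dDAVP, 2 of the 6 tested members were lower with TAZ siRNA, Pde4b and Pde10a, and none was higher, where 10.7% of all tested genes were called, 5.77% higher and 4.97% lower. With vehicle, 1 member was higher with TAZ siRNA, Pde4a, and none was lower, where 6.3% of all tested genes were called, 3.19% higher and 3.11% lower. The sign of each of these calls was the same under every alternative run.

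Under dDAVP the 3 TAZ siRNA libraries of Pde4b (37.7 to 42.7 CPM) lay just below the 3 control siRNA libraries (43.1 to 49.0 CPM). The log2 fold change was −0.22 ± 0.07 (0.86-fold, adjusted p = 0.0485). Among the fits without 1 library, the call was lost without TAZ siRNA dDAVP replicate 1 (adjusted p = 0.119) or replicate 3 (0.188), and without control siRNA dDAVP replicate 1 (0.168) or replicate 2 (0.143). Pde4b met the threshold in 7 of 12 alternatives (other tools, filters and fits, and each library left out), over which its adjusted p ran from 0.0206 to 0.188. With vehicle its log2 fold change was 0.04 ± 0.11 (adjusted p = 0.884).

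Pde10a under dDAVP stood at 0.436, 0.552 and 0.397 CPM in TAZ siRNA cells, against 1.13, 1.40 and 1.15 CPM in control siRNA cells, without overlap. It amounted to a log2 fold change of −1.41 ± 0.30 (0.377-fold, adjusted p = 0.00862), and the call was lost without control siRNA dDAVP replicate 2 (adjusted p = 0.0581). Over 11 alternatives its adjusted p ran from 0.00066 to 0.0581. DESeq2 gave no adjusted p for this comparison.

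Pde4d under dDAVP stood at 15.8 to 18.3 CPM in TAZ siRNA cells and 18.3 to 19.5 CPM in control siRNA cells. Its log2 fold change of −0.17 ± 0.08 did not pass the test (adjusted p = 0.183), and no alternative brought it past the threshold. With vehicle its log2 fold change was 0.09 ± 0.10 (adjusted p = 0.685).

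Pde4a with vehicle stood at 8.87, 9.11 and 8.05 CPM in TAZ siRNA cells, against 6.64, 6.71 and 7.28 CPM in control siRNA cells, without overlap. Its log2 fold change was 0.33 ± 0.09 (1.26-fold, adjusted p = 0.0309). The call was lost without TAZ siRNA vehicle replicate 1 (adjusted p = 0.0654) or replicate 2 (0.149), without control siRNA vehicle replicate 1 (0.125) or replicate 2 (0.0913), and with limma-voom (0.0547). With dDAVP the groups overlapped and the log2 fold change was 0.05 ± 0.08 (adjusted p = 0.78).

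Pde4c and Pde7a were not called for the siRNA in either treatment. The log2 fold changes of Pde4c were 0.00 ± 0.04 with dDAVP (adjusted p = 0.964) and −0.02 ± 0.04 with vehicle (adjusted p = 0.883). Those of Pde7a were −0.04 ± 0.04 with dDAVP (adjusted p = 0.567) and 0.03 ± 0.04 with vehicle (adjusted p = 0.789).

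Whether the response to dDAVP differed between the siRNAs was tested as an interaction. Among all tested genes 0.0314% were called in it, and of the members 0 were called by edgeR, by DESeq2 or by limma-voom, and 1 had an unadjusted p under 0.05. That member was Pde4a, whose response was smaller with TAZ siRNA by a log2 difference of −0.29 ± 0.12 (adjusted p = 0.557). The difference was −0.26 ± 0.13 for Pde4b and likewise −0.26 ± 0.13 for Pde4d (adjusted p = 0.618 each), and 0.02 ± 0.06 for Pde4c (adjusted p = 0.959). It could not be estimated for Pde10a, which had no counts in vehicle. These misses do not show that the responses were alike.

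Levels of different genes were compared per length, in the deposited FPKM, as mean ± SD over 3 libraries. With vehicle the order began with Pde7a at 32.19 ± 1.517 FPKM in TAZ siRNA cells and 31.98 ± 2.139 FPKM in control siRNA cells. Among the members it was followed by Pde4c (13.25 ± 0.1738 and 13.07 ± 0.2676 FPKM), Pde4a (1.766 ± 0.1141 and 1.391 ± 0.106 FPKM), Pde4b (0.7691 ± 0.05566 and 0.7377 ± 0.1034 FPKM) and Pde4d (0.3153 ± 0.03171 and 0.2992 ± 0.04379 FPKM), each with TAZ siRNA first. Neighbouring members in this order did not overlap with either siRNA.

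With dDAVP the order of the Pde4 genes was another one. Pde7a still led, at 29.72 ± 3.16 FPKM in TAZ siRNA cells and 31.68 ± 1.842 FPKM in control siRNA cells, and Pde4c followed at 12.71 ± 0.4767 and 12.86 ± 0.8013 FPKM. Pde4b came next at 8.734 ± 0.6581 FPKM with TAZ siRNA and 10.19 ± 0.6882 FPKM with control siRNA. It thus stood above Pde4a, which was at 2.419 ± 0.1943 and 2.414 ± 0.2577 FPKM, and above Pde4d, at 1.643 ± 0.1067 and 1.867 ± 0.06705 FPKM. Here too neighbouring members down to Pde4d did not overlap within a group. Pde10a was the lowest of the tested members, at 0.04479 FPKM with TAZ siRNA and 0.1376 FPKM with control siRNA.

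The FPKM of all phosphodiesterase genes in the table was summed to describe the make-up of their mRNA. This sum holds Pde6d, which encodes a prenyl-binding subunit with no catalytic activity of its own. It came to 74.8 ± 4.844 FPKM in TAZ siRNA cells with dDAVP, against 69.5 ± 1.374 FPKM with vehicle, and to 78.7 ± 2.495 FPKM in control siRNA cells with dDAVP, against 68.93 ± 1.198 FPKM with vehicle. The 4 Pde4 genes made up 35.03, 33.59 and 33.72% of it in TAZ siRNA cells with dDAVP, against 22.55, 23.81 and 23.17% with vehicle. In control siRNA cells they made up 36.43, 33.28 and 34.49% with dDAVP, against 22.50, 21.93 and 23.01% with vehicle. The dDAVP libraries thus held a larger Pde4 share than any vehicle library.

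Within the Pde4 sum, Pde4b made up 34.22 ± 0.7003% in TAZ siRNA cells with dDAVP, against 4.774 ± 0.312% with vehicle. In control siRNA cells it made up 37.28 ± 1.377% with dDAVP, against 4.764 ± 0.6922% with vehicle. Pde4c, whose level was not called as changed, made up 49.86% with dDAVP and 82.31% with vehicle in TAZ siRNA cells, and 47.06% with dDAVP and 84.33% with vehicle in control siRNA cells. Pde7a made up 39.66% of the sum of all phosphodiesterase genes with dDAVP and 46.3% with vehicle in TAZ siRNA cells, and 40.24% with dDAVP and 46.37% with vehicle in control siRNA cells. Shares within a sum are tied to each other, and no test was run on them.

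**Figure D3:**
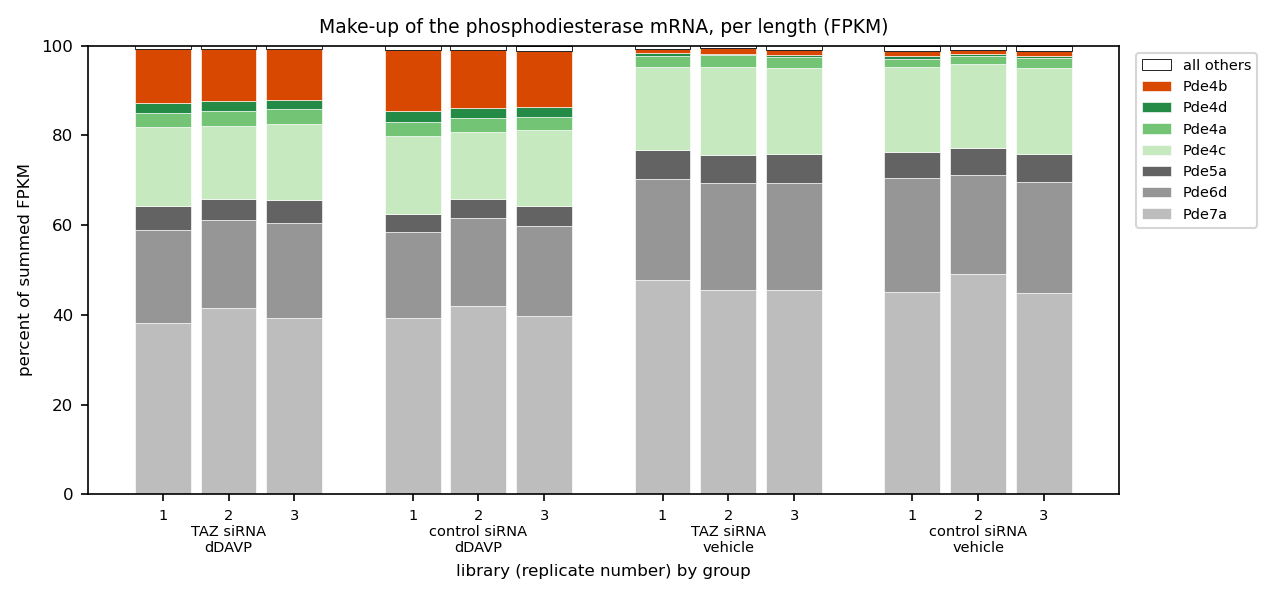
Share of the summed FPKM of all phosphodiesterase genes (y axis, percent) held by each gene (coloured segments) in each library (x axis, replicate numbers by group). Pde7a is the largest segment in each library, and the Pde4b segment averages 11.67% and 12.94% in the TAZ siRNA and control siRNA groups with dDAVP, against 1.108% and 1.072% in the same order with vehicle.

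The Pde4 genes make long and short proteins from several promoters, so their transcript models were examined. Of the 32 models 19 passed the filter. For dDAVP over vehicle the level of 1 model was called with TAZ siRNA, where 0.244% of 53174 tested transcripts were called, and of 1 with control siRNA, where 0.512% were called. Both calls were the Pde4b model NM_001177980. Between the siRNAs 0 models were called with dDAVP (0.0865% of all, 0 with an unadjusted p under 0.05) or with vehicle (0.0188% of all, 3 unadjusted), and 0 in the interaction (0.00376% of all, 2 unadjusted).

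A model's share of its gene's counts was tested with edgeR's diffSpliceDGE (likelihood ratio test, adjusted over 46176 transcripts), and 0 of the models were called in any of the 5 comparisons. Of all those transcripts 0.329% were called for dDAVP over vehicle with TAZ siRNA and 0.288% with control siRNA. For TAZ siRNA over control siRNA 0.398% were called with dDAVP and 0.321% with vehicle, and in the interaction 0.459%. At an unadjusted p under 0.05, 5 of 19 tested Pde4 models passed for dDAVP over vehicle with TAZ siRNA and 3 with control siRNA. For TAZ siRNA over control siRNA 2 passed with dDAVP and 3 with vehicle, and in the interaction 3. The share of all transcripts at that unadjusted threshold is not given here, so these numbers cannot be set against the called shares.

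NM_001177980, whose annotated start at position 102570060 of chromosome 4 lies in the printed Pde4b window, held nearly all Pde4b counts. Its share was 99.21 ± 0.6891% with dDAVP and 99.55 ± 0.7873% with vehicle in TAZ siRNA cells, and 98.67 ± 1.313% with dDAVP and 100% with vehicle in control siRNA cells. It had 2359, 2003 and 1685 counts in TAZ siRNA cells with dDAVP, against 199, 228 and 217 with vehicle. Control siRNA cells had 2819, 2820 and 2367 counts with dDAVP, against 216, 136 and 198 with vehicle. Its level followed that of the gene, with log2 fold changes of 3.51 ± 0.14 with TAZ siRNA (adjusted p = 2.52e-05) and 3.76 ± 0.14 with control siRNA (adjusted p = 7.31e-06).

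Pde4d counts were spread over several starts. XM_006517647 (start 109685112 of chromosome 13) had 589, 421 and 426 counts in TAZ siRNA cells with dDAVP, against 131, 17 and 47 with vehicle. In control siRNA cells it had 693, 649 and 550 counts with dDAVP, against 128, 6 and 7 with vehicle. All dDAVP libraries were above all vehicle libraries, and the vehicle libraries differed widely among themselves. The fitted log2 fold change was 3.15 ± 1.14 with TAZ siRNA (adjusted p = 0.654) and 3.68 ± 1.17 with control siRNA (adjusted p = 0.422). Without control siRNA vehicle replicate 1 both the level (adjusted p = 0.0339) and the share (0.0149) of this model passed the threshold in control siRNA cells.

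XM_006517644 (start 109255517) held 7.31 ± 7.362% of Pde4d with dDAVP and 46.81 ± 35.44% with vehicle in TAZ siRNA cells, and 13.86 ± 17.85% with dDAVP and 57.55 ± 34.06% with vehicle in control siRNA cells. The control siRNA value with dDAVP rests on replicate 3, which stood at 34.29%, and without it the mean was 3.641%. XM_006517649 (start 109896022) held 30.31 ± 12.74% with dDAVP and 22.69 ± 34.55% with vehicle in TAZ siRNA cells, and 25.94 ± 13.6% with dDAVP and 0.7533 ± 1.305% with vehicle in control siRNA cells. In TAZ siRNA cells with vehicle, replicate 3 stood at 62.55% and the others averaged 2.754%. The spreads between libraries were wide with dDAVP and with vehicle, and these shares were not called.

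The models XM_006517645 and XM_030247262 share 1 start (109440901), and were summed after seeing the data. Together they had 54, 41 and 12 counts in TAZ siRNA cells with dDAVP, against 0 in each library with vehicle. Control siRNA cells had 22, 54 and 4 counts with dDAVP, against 36, 7 and 53 with vehicle. The 3 TAZ siRNA vehicle libraries thus lay below all others. In control siRNA cells with vehicle, replicate 1 had only XM_030247262 (17.39% of Pde4d) and replicate 3 only XM_006517645 (29.94%). The share of this start in Pde4d was called lower for TAZ siRNA over control siRNA with vehicle (adjusted p = 0.00152, 0.323% of all 46171 shares called) and called in the interaction (adjusted p = 0.00434, 0.461% called), both by diffSpliceDGE. Only Pde4 models were summed, so the other shares in these percentages are of single transcripts. Since the summing followed a look at these same libraries, these p-values are descriptions. The level of this start was called in neither comparison (adjusted p = 0.357 and 0.866).

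Among the Pde4a models, NM_001310750, which begins in the printed Pde4a window, held 73.97 ± 17.83% with dDAVP and 82.16 ± 6.955% with vehicle in TAZ siRNA cells, and 84.01 ± 17.59% with dDAVP and 65.09 ± 12.49% with vehicle in control siRNA cells. Its level differed between dDAVP and vehicle by a log2 fold change of 1.16 ± 0.27 with control siRNA, which did not pass the test over all transcripts (adjusted p = 0.185). NM_183408 (start 21165714 of chromosome 9) held 10.85 ± 9.153% with dDAVP and 6.242 ± 10.81% with vehicle in TAZ siRNA cells, and 8.12 ± 14.06% with dDAVP and 21.65 ± 17.97% with vehicle in control siRNA cells. XM_030244126 reached at most 9.287%, XR_003947813 5.098% and NM_019798 6.053% in the group where each was highest.

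Pde4c counts lay mostly on 5 models that start within 1 kb of each other (70723835 to 70724064 of chromosome 8), so these were summed too. Among these models NM_001310465 held the most in each group, 40.8 to 55.93% of the gene's counts on average. The start as a whole held 95.64 ± 2.004% with dDAVP and 86.54 ± 8.208% with vehicle in TAZ siRNA cells, and 95.43 ± 1.711% with dDAVP and 88.43 ± 3.308% with vehicle in control siRNA cells. The downstream model XM_011242260 (start 70742996) had 112, 143 and 48 counts in TAZ siRNA cells with dDAVP, against 225, 201 and 604 with vehicle. Control siRNA cells had 83, 111 and 34 counts with dDAVP, against 293, 152 and 409 with vehicle. Every dDAVP library was below every vehicle library of the same siRNA. The log2 change of its share was not called with TAZ siRNA (−1.02, adjusted p = 0.742) or control siRNA (−1.37, adjusted p = 0.386).

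**Figure D4:**
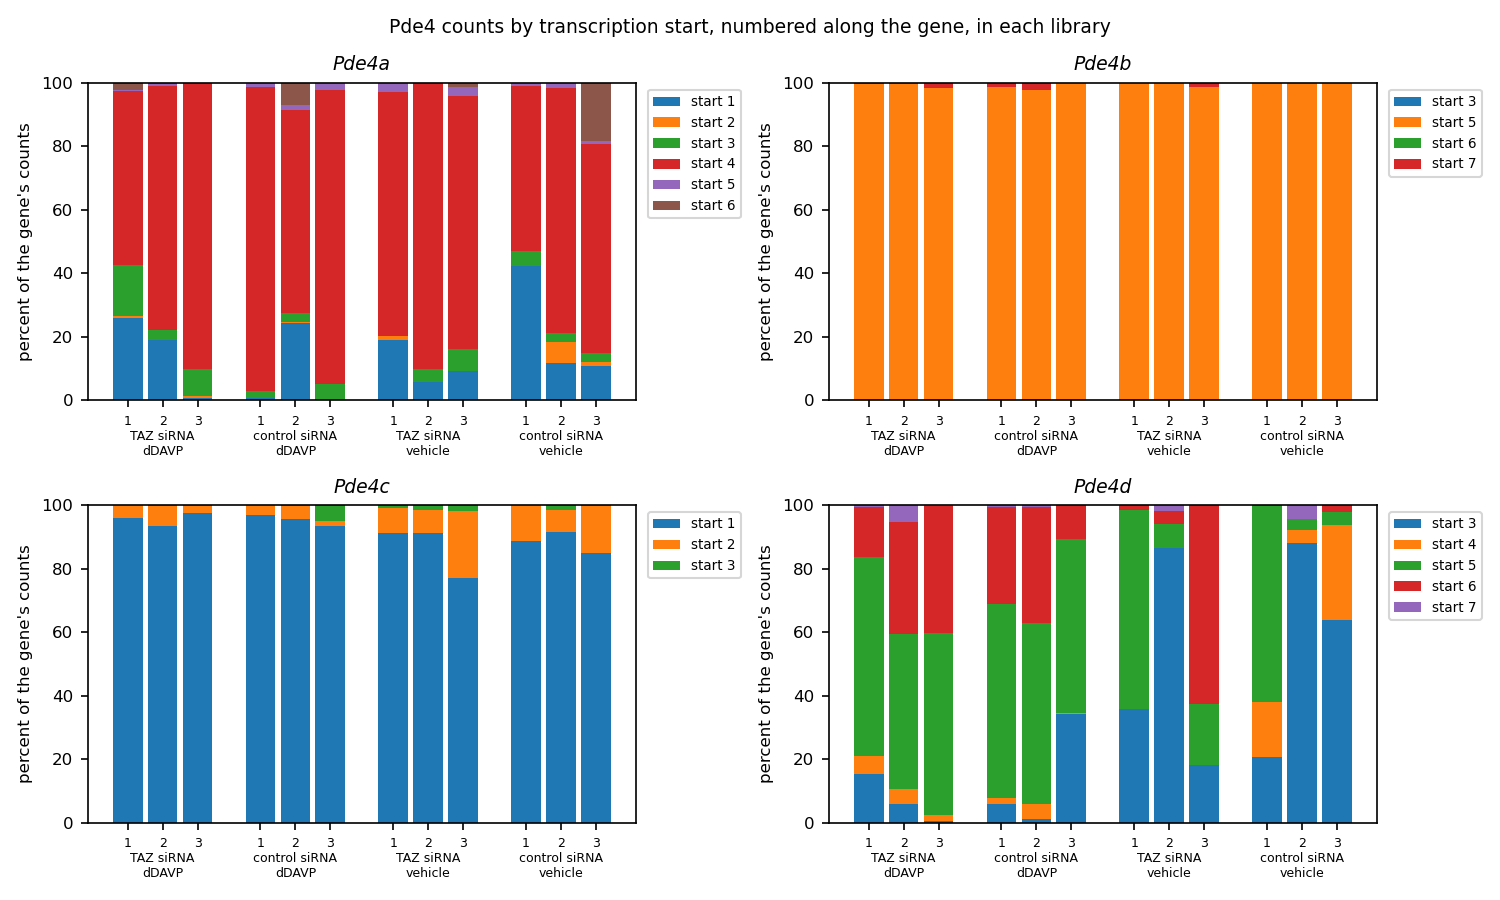
Share of each Pde4 gene's counts (y axes, percent) on transcript models grouped by annotated start (coloured segments, numbered along the gene) in each library (x axes, replicate numbers by group). Pde4b lies on 1 start in nearly all of its counts (98.67% or more on average in each group), while the Pde4d segments differ widely between libraries of a group, most of all with vehicle.

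Of the 15 other phosphodiesterase genes in the table, 4 passed the filter, Pde2a, Pde5a, Pde6d and Pde9a, and 1 of them, Pde5a, was called with dDAVP with either siRNA, where 10.8% of all tested genes were called with TAZ siRNA and 19.2% with control siRNA. Pde5a encodes the cGMP-specific enzyme inhibited by sildenafil. It stood at 27.7, 27.1 and 27.3 CPM in TAZ siRNA cells with dDAVP, against 33.1, 31.2 and 33.0 CPM with vehicle, and at 24.5, 24.6 and 25.6 CPM in control siRNA cells with dDAVP, against 29.3, 31.0 and 30.8 CPM with vehicle. All dDAVP libraries were below the vehicle libraries. The log2 fold change was −0.24 ± 0.05 with TAZ siRNA (adjusted p = 0.00168) and −0.29 ± 0.05 with control siRNA (adjusted p = 0.000254).

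Pde6d stood between 22.5 and 25.7 CPM in all libraries and was not called. Pde2a was not called either. Pde9a, a cGMP-specific enzyme, had a log2 fold change of −0.75 ± 0.24 for TAZ siRNA over control siRNA with vehicle (adjusted p = 0.0714), which passed the threshold without TAZ siRNA vehicle replicate 3 (adjusted p = 0.0441). Pde7b, the other gene of the PDE7 family, had 0, 5 and 14 counts in TAZ siRNA cells with dDAVP, 7, 14 and 9 in control siRNA cells with dDAVP, and 0 in all vehicle libraries, and did not pass the filter.

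The genes that make cAMP form the other side of the balance. Of 12 listed, 6 were tested. With control siRNA 3 were higher with dDAVP, 1 was lower and 2 were not called (median log2 fold change 0.21), and with TAZ siRNA 2 were higher and 4 not called (median 0.12), against 0.00 over all tested genes in both, where 19.2% of all tested genes were called with control siRNA and 10.8% with TAZ siRNA. For TAZ siRNA over control siRNA, 1 was lower in each treatment (10.7% of all tested genes called with dDAVP and 6.3% with vehicle), and none was called in the interaction by edgeR, DESeq2 or limma-voom, where 0 had an unadjusted p under 0.05.

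Avpr2, the V2 receptor itself, was that gene. It stood at 36.4, 35.5 and 33.3 CPM in TAZ siRNA cells with dDAVP, against 24.9, 20.9 and 25.7 CPM with vehicle. In control siRNA cells it stood at 47.9, 42.8 and 44.3 CPM with dDAVP, against 29.8, 27.1 and 31.7 CPM with vehicle. Each dDAVP group was above its vehicle group, and each TAZ siRNA group below its control siRNA group. For dDAVP over vehicle the log2 fold change was 0.56 ± 0.07 with TAZ siRNA (adjusted p = 5.26e-05) and 0.61 ± 0.07 with control siRNA (adjusted p = 9.8e-06). That of TAZ siRNA over control siRNA was −0.36 ± 0.07 with dDAVP (adjusted p = 0.00356) and −0.31 ± 0.07 with vehicle (adjusted p = 0.0183). The vehicle call was lost without TAZ siRNA vehicle replicate 2 (adjusted p = 0.105) and without control siRNA vehicle replicate 1 (0.0683) or replicate 3 (0.0919).

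Adcy6, an adenylyl cyclase, rose with dDAVP by a log2 fold change of 0.21 ± 0.03 with TAZ siRNA (adjusted p = 0.000276) and 0.22 ± 0.03 with control siRNA (adjusted p = 0.000123). Adcy3, another cyclase, was called higher with control siRNA (0.59 ± 0.20, adjusted p = 0.0479). That call was lost under 9 of 12 alternatives, including without any 1 of the 6 libraries compared (adjusted p from 0.0685 to 0.168). Gnas, the stimulatory G protein subunit, was lower with dDAVP in control siRNA cells (−0.11 ± 0.03, adjusted p = 0.0227). The Gnas call was lost without control siRNA dDAVP replicate 1 (0.077) or replicate 3 (0.0505) and without control siRNA vehicle replicate 3 (0.0972).

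Of 13 listed effectors of cAMP 10 were tested, and with dDAVP 2 were higher, 2 lower and 6 not called with either siRNA (median log2 fold change −0.03 with TAZ siRNA and −0.04 with control siRNA), beside 10.8% of all tested genes called with TAZ siRNA and 19.2% with control siRNA. For TAZ siRNA over control siRNA 1 was lower with dDAVP and 1 higher with vehicle, near the 10.7% and 6.3% of all tested genes called there. DESeq2's Wald test called 3 effectors in each. That test also called more genes in all, 2086 with dDAVP and 1427 with vehicle, against 1711 and 1004 by edgeR. No effector was called in the interaction by edgeR, DESeq2 or limma-voom, where 0 had an unadjusted p under 0.05. Prkar2b, a regulatory subunit of protein kinase A, stood at 196, 214 and 197 CPM in TAZ siRNA cells with dDAVP, against 137, 134 and 128 CPM with vehicle, and at 256, 235 and 235 CPM in control siRNA cells with dDAVP, against 158, 146 and 142 CPM with vehicle. The dDAVP libraries were all above the vehicle libraries. For dDAVP over vehicle the log2 fold change was 0.60 ± 0.05 with TAZ siRNA (adjusted p = 9.14e-08) and 0.71 ± 0.05 with control siRNA (adjusted p = 6.38e-09), and that of TAZ siRNA over control siRNA with dDAVP was −0.26 ± 0.05 (adjusted p = 0.00152).

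Prkar1a, another regulatory subunit, rose with dDAVP by 0.17 ± 0.03 with TAZ siRNA (adjusted p = 0.00044) and 0.23 ± 0.03 with control siRNA (adjusted p = 1.47e-05) on the log2 scale. Pkia, a peptide inhibitor of the kinase, changed by −0.52 ± 0.07 with TAZ siRNA (adjusted p = 0.000123) and −0.50 ± 0.08 with control siRNA (adjusted p = 0.000128). Rapgef3, the cAMP-activated exchange factor Epac, changed by −0.21 ± 0.04 with TAZ siRNA (adjusted p = 0.00372) and −0.22 ± 0.04 with control siRNA (adjusted p = 0.00175). With vehicle Pkia was higher with TAZ siRNA than with control siRNA (0.25 ± 0.07, adjusted p = 0.0497). This last call was lost with DESeq2 size factors (0.052), without TAZ siRNA vehicle replicate 1 (0.0561), replicate 2 (0.165) or replicate 3 (0.163), and without control siRNA vehicle replicate 1 (0.24) or replicate 3 (0.0955).

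Of 19 listed anchors and partners of phosphodiesterases, 17 were tested. With control siRNA 3 were higher with dDAVP, 4 lower and 10 not called (median log2 fold change −0.08), where 19.2% of all tested genes were called. With TAZ siRNA 3 were higher, 2 lower and 12 not called (median −0.01), where 10.8% were called. For TAZ siRNA over control siRNA 1 was higher and 2 lower with dDAVP, where 10.7% of all tested genes were called. That count was 0 without TAZ siRNA dDAVP replicate 1 or control siRNA dDAVP replicate 1, 1 without TAZ siRNA dDAVP replicate 3 or control siRNA dDAVP replicate 3, and 5 with DESeq2's Wald test. The Wald test called 2086 genes in all in that comparison, against 1711 by edgeR. With vehicle 0 were called by edgeR or limma-voom, where 6.3% of all tested genes were called by edgeR and 4 of the list had an unadjusted p under 0.05. DESeq2's Wald test called 3 of the list there, Akap12 (log2 fold change 0.23, adjusted p = 0.00993), Akap5 (−0.43, adjusted p = 0.022) and Akap11 (−0.14, adjusted p = 0.0428). It called 1427 genes in all there, against 1004 by edgeR. With the compared groups alone in the fit, edgeR called Akap12 (adjusted p = 0.00665) and Akap5 (0.0325), beside 777 genes in all. Without TAZ siRNA vehicle replicate 1 edgeR called Akap5 (0.0417), Akap9 (0.00996) and Akap11 (0.00603), beside 1435 genes in all. In the interaction 0 of the list were called by edgeR or limma-voom, where 2 had an unadjusted p under 0.05, and 1, Akap12, by DESeq2. Over all tested genes edgeR called 0.0314% in the interaction, and DESeq2's Wald test called 77 genes.

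Akap12, the anchor known as gravin, had the widest change of this list. It stood at 256, 314 and 250 CPM in TAZ siRNA cells with dDAVP, against 125, 138 and 126 CPM with vehicle, and at 340, 315 and 319 CPM in control siRNA cells with dDAVP, against 109, 111 and 111 CPM with vehicle. It amounted to a log2 fold change of 1.07 ± 0.07 with TAZ siRNA (adjusted p = 5.3e-08) and 1.56 ± 0.07 with control siRNA (adjusted p = 5.09e-10). The difference of these responses was −0.48 ± 0.10 (adjusted p = 0.087). It was past the threshold with DESeq2's Wald test (adjusted p = 0.000339) and without TAZ siRNA dDAVP replicate 2 (0.000478), the highest of the TAZ siRNA libraries. Under dDAVP Akap12 was lower with TAZ siRNA than with control siRNA (−0.25 ± 0.07, adjusted p = 0.0269), a call lost when only the 2 groups entered the fit (0.103), without TAZ siRNA dDAVP replicate 1 (0.096) or replicate 3 (0.106), and without control siRNA dDAVP replicate 1 (0.0835).

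Arrb1, an arrestin that brings PDE4D to activated receptors, stood at 33.0, 32.6 and 29.7 CPM in TAZ siRNA cells with dDAVP, against 39.0, 38.1 and 37.4 CPM with vehicle, and at 26.3, 29.4 and 26.7 CPM in control siRNA cells with dDAVP, against 35.1, 41.2 and 41.0 CPM with vehicle. Its log2 fold change was −0.26 ± 0.06 with TAZ siRNA (adjusted p = 0.0115) and −0.51 ± 0.06 with control siRNA (adjusted p = 1.8e-05). The TAZ siRNA call was lost without TAZ siRNA dDAVP replicate 3 (adjusted p = 0.0617). Arrb1 was also higher with TAZ siRNA than with control siRNA under dDAVP (0.21 ± 0.07, adjusted p = 0.0454). That call was lost under 7 of 12 alternatives, among them without TAZ siRNA dDAVP replicate 1 (0.173) or replicate 2 (0.118) and without control siRNA dDAVP replicate 1 (0.169) or replicate 3 (0.168).

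Among other anchors of protein kinase A, Akap5 was lower with dDAVP in control siRNA cells (−0.57 ± 0.13, adjusted p = 0.00367), and Akap13 was higher with TAZ siRNA (0.22 ± 0.05, adjusted p = 0.00391) and with control siRNA (0.21 ± 0.05, adjusted p = 0.00353). Akap7, whose product accompanies PDE4D in rat, was lower with dDAVP in control siRNA cells (−0.22 ± 0.06, adjusted p = 0.0159). That call was lost without control siRNA dDAVP replicate 1 (0.055) and without control siRNA vehicle replicate 1 (0.0593) or replicate 3 (0.0759). Akap9 was lower with TAZ siRNA than with control siRNA under dDAVP (−0.25 ± 0.07, adjusted p = 0.0313). It lost the call without TAZ siRNA dDAVP replicate 1 (0.117), replicate 2 (0.0669) or replicate 3 (0.0637), and without control siRNA dDAVP replicate 1 (0.103) or replicate 3 (0.0845).

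Both listed exporters of cyclic nucleotides were tested. With dDAVP over vehicle, Abcc4 was higher with TAZ siRNA (0.16 ± 0.03, adjusted p = 0.00384) and Abcc5 lower with control siRNA (−0.19 ± 0.04, adjusted p = 0.00213). There 10.8% of all tested genes were called with TAZ siRNA and 19.2% with control siRNA. Between the siRNAs, Abcc5 was higher in TAZ siRNA cells with dDAVP (0.22 ± 0.04, adjusted p = 0.00184) and Abcc4 lower with vehicle (−0.13 ± 0.03, adjusted p = 0.0346), beside 10.7% and 6.3% of all tested genes called. That Abcc4 call was lost under 6 of 12 alternatives, among them without TAZ siRNA vehicle replicate 2 (0.105) or replicate 3 (0.132) and without control siRNA vehicle replicate 1 (0.0921) or replicate 3 (0.129).

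**Figure D5:**
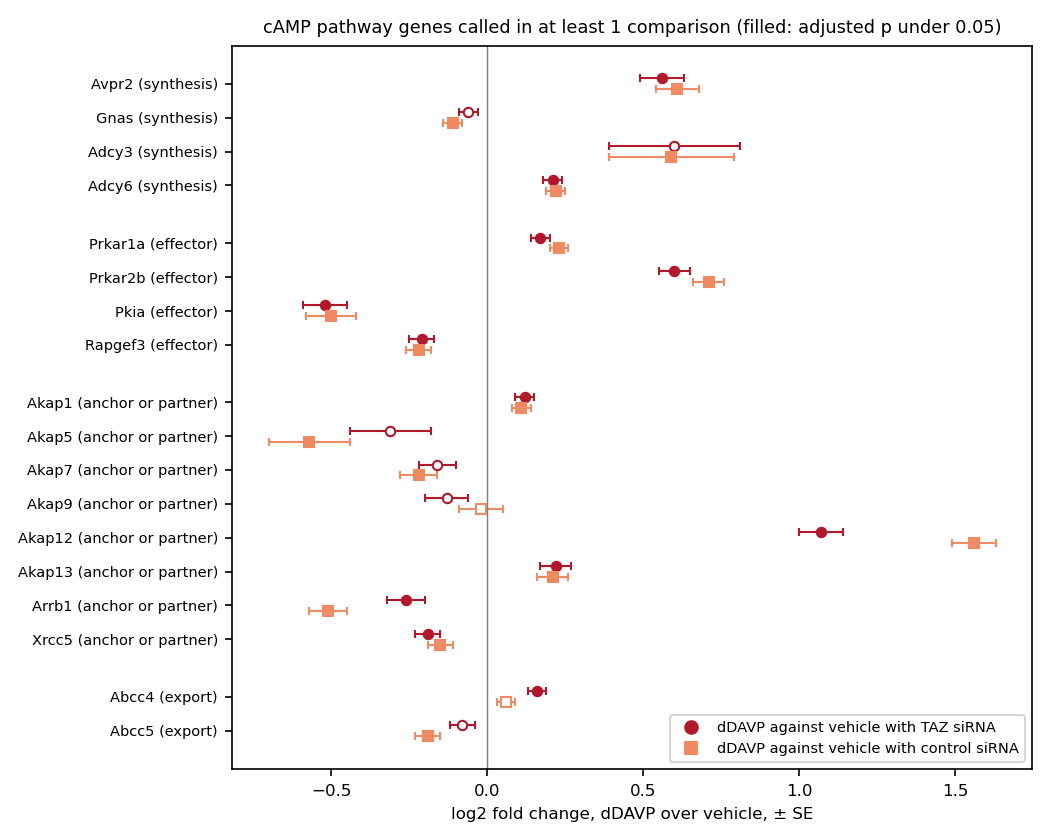
Log2 fold change of dDAVP over vehicle (x axis) with SE as bars, with TAZ siRNA and with control siRNA, for genes of cAMP synthesis, effectors, anchors and partners, and export (rows) that were called in at least 1 comparison. Akap12 lies farthest right (1.07 with TAZ siRNA and 1.56 with control siRNA) and Akap5 with control siRNA (−0.57) is among the lowest.

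The genes whose pattern was most like that of Pde4b and of Pde4d were found by the root mean square difference of log2 CPM (prior count 2, each gene centred) over the 12 libraries. For Pde4b the nearest were Baiap2l2 (0.258), Nr4a3 (0.324), Ugt1a6a (0.49), Pde10a (0.587) and Slc14a2 (0.633). Pde10a and Slc14a2 had no count in any vehicle library, so that their differences from Pde4b depend on the prior count, and Slc14a2 had at most 15 counts in a library. Ugt1a6a shares exons with other Ugt1a genes, and its counts are uncertain. Nr4a3 encodes an orphan nuclear receptor, and Slc14a2 encodes urea transporters of the collecting duct. The log2 fold change of Baiap2l2 was 3.43 ± 0.10 with TAZ siRNA and 3.51 ± 0.10 with control siRNA, and that of Nr4a3 was 3.62 ± 0.29 with TAZ siRNA and 3.68 ± 0.29 with control siRNA. For Pde4d the nearest were Nipal1 (0.228), Aqp5 (0.249), Nr4a1 (0.286), Nod2 (0.339) and Arg2 (0.346). Aqp5 encodes a water channel, and its log2 fold change was 1.83 ± 0.11 with TAZ siRNA and 2.20 ± 0.11 with control siRNA.

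The collecting duct label was checked against marker genes. All libraries held between 45095331 and 61725339 counts. The summed CPM of 11 principal cell markers, which include Avpr2 and Aqp2, ran from 2083 to 2209 in TAZ siRNA cells with dDAVP, against 1684 to 1885 with vehicle, and from 2342 to 2461 in control siRNA cells with dDAVP, against 1626 to 1717 with vehicle. Such sums follow the most abundant genes. Of the 11 markers, 2 were under 1 CPM in all libraries. For dDAVP over vehicle, the 9 tested markers had a median log2 fold change of 0.29 with TAZ siRNA and 0.56 with control siRNA. With TAZ siRNA 5 were called higher and 1 lower, and with control siRNA 6 higher and 1 lower, beside 10.8% and 19.2% of all tested genes. For TAZ siRNA over control siRNA, the median of these 9 was −0.35 with dDAVP and −0.18 with vehicle. With dDAVP 1 was called higher and 3 lower, and with vehicle 1 lower, beside 10.7% and 6.3% of all tested genes. With vehicle the sums of the siRNA groups overlapped and reached higher with TAZ siRNA, unlike the median. Aqp2 itself stood at 11 ± 2.39 CPM in TAZ siRNA cells with dDAVP, against 0.0484 ± 0.0838 CPM with vehicle, and at 34.7 ± 8.76 CPM in control siRNA cells with dDAVP, against 0.34 ± 0.00341 CPM with vehicle. The sum of 7 intercalated cell markers also moved with dDAVP, though 4 of the 7 were under 1 CPM in all libraries. It ran from 187 to 204 CPM with dDAVP, against 145 to 162 CPM with vehicle, in TAZ siRNA cells, and from 217 to 229 CPM with dDAVP, against 162 to 174 CPM with vehicle, in control siRNA cells, with Foxi1 and Slc26a4 at 0.

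The sum of 7 markers of other nephron segments was lower with TAZ siRNA, though 6 of the 7 were under 1 CPM in all libraries. It ran between 125 and 136 CPM in TAZ siRNA cells and between 152 and 168 CPM in control siRNA cells with dDAVP, and between 138 and 153 CPM in TAZ siRNA cells and 179 and 189 CPM in control siRNA cells with vehicle, with Slc12a1 and Nphs1 at 0. Of these 7 markers 2 were tested, and for TAZ siRNA over control siRNA 1 was called lower in each treatment. Among all tested genes 10.7% were called with dDAVP and 6.3% with vehicle. The median log2 fold change of those 2 markers was 0.47 with dDAVP and 1.15 with vehicle, so the sum does not describe the list. The sum of 11 fibroblast, endothelial and immune markers stayed between 8.6 and 11.6 CPM in all libraries, with Col1a2, Dcn, Kdr and Adgre1 at 0. Whether these marker levels had a part in the phosphodiesterase results was not tested.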

How the data were processed

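Messenger RNA of 12 mpkCCDc11 libraries, 3 in each of 4 groups, was analysed from the deposited tables. Per the file headers, the authors deposited raw estimated counts for genes and for transcripts, all of them whole numbers. Gene values were sums over their transcripts in all but 12 of 549324 cases, and counts from 2 to 20 were, in 100% of cases, the deposited FPKM times length rounded up. The authors also deposited FPKM and TPM, per the file headers, of which FPKM served to compare levels between genes and TPM to check their order. Bowtie 0.12.2 and the builds mm8 and mm10 appear in the submitters' processing notes, without a role. The counting tool, how reads of similar transcripts were divided and whether strand was used are not given in the sources used here, although the labels' protocols name a stranded TruSeq kit beside another TruSeq kit. No per-sample column was left out.

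Counts were fitted in R 4.3.3 with edgeR 4.0.16 (TMM factors 0.9885 to 1.013; filterByExpr, minimum count 10; robust quasi-likelihood F test; 1 mean per group over all 12 libraries), and Benjamini-Hochberg adjustment ran over all 15932 genes or 53174 transcripts tested. The design had foreseen raw counts; the estimated counts were already whole and were not rounded. Library totals of 45095331 to 61725339 counts set the precision, and the coefficient of biological variation was 5.11%. Counts of libraries in a group differed beyond sampling noise (chi-square over its degrees of freedom 4.25 to 13.5), so none was taken for a repeat deposit of another, which does not show that they are separate cultures. Intervals and floors cover counting error only. The standard error of a log2 fold change is its size over the square root of F. Shares of transcripts were tested with diffSpliceDGE. Alternatives were DESeq2 1.42.0 (size factors, Wald test), limma-voom (limma 3.58.1), no filter, the compared groups alone, the replicate number as a block, shares in FPKM and each library left out. Summing Pde4 transcripts with starts within 1 kb was added after seeing the data. The edgeR gene test and the diffSpliceDGE share test were checked on simulated data, for dDAVP over vehicle with control siRNA alone. The transcripts changed in the share simulation had more counts than the Pde4d start at 109440901. All simulated features were given the same small spread between libraries, far below that of the Pde4d shares within a group. The check therefore does not cover the share calls of that start. The other comparisons and tests were not simulated.

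The members and gene lists were chosen with earlier results of these data known. Named are all members and tested phosphodiesterase genes, up to 6 called genes a list by size of the log2 fold change, Pde4 transcripts holding at least 5% of their gene in a group, and the 5 genes most like Pde4b and Pde4d. The level of 1 marker gene is not reported here.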

Additional observations from a re-analysis of the deposited data

Results flagged for a closer look

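For the Pde4d start at 109440901 of chromosome 13 (models XM_006517645 and XM_030247262, summed after seeing the data), the test of whether its share of Pde4d counts changed by as much with dDAVP under both siRNAs passed the threshold. The share was 4.04 ± 2.155% with dDAVP and 0% with vehicle in TAZ siRNA cells, and 2.35 ± 2.191% with dDAVP and 17.18 ± 12.88% with vehicle in control siRNA cells. The interaction was called by diffSpliceDGE (adjusted p = 0.00434) and in each of the 12 fits that left out 1 library (adjusted p from 0.00198 to 0.0273). The level of this start was not called in the interaction (adjusted p = 0.866). The counts behind it are low, at most 54 a library and 0 in TAZ siRNA cells with vehicle, the other Pde4d starts vary widely between libraries of a group, and neither model alone was called with all libraries. Outliers within a group were not looked for, as groups hold 3 libraries.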

How the results depend on the processing

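For dDAVP over vehicle 4 phosphodiesterase members were called under every alternative with control siRNA. With TAZ siRNA it was 3 with DESeq2's Wald test, in which Pde10a had no adjusted p. The number was 5 without TAZ siRNA dDAVP replicate 2 or TAZ siRNA vehicle replicate 3, where Pde7a joined, and 4 under the others. These numbers count calls of Pde10a, although it entered the test through its dDAVP libraries alone. For TAZ siRNA over control siRNA the count was less stable. With vehicle it was 1, and 0 with limma-voom and 0 to 1 without 1 library. With dDAVP it was 2, and 1 with DESeq2's Wald test, again without Pde10a, 1 with the replicate block and 0 to 2 without 1 library. In the interaction 0 members were called under each. Pde4 transcripts called with control siRNA were 1 to 2 without 1 library, and with starts summed 2 without control siRNA vehicle replicate 1. Pde4 shares called were 1 with the replicate block for dDAVP over vehicle with control siRNA, and without 1 library 0 to 1 in that comparison, in TAZ siRNA over control siRNA with vehicle and in the interaction. With starts summed they were 1 with vehicle and 1 in the interaction, with all libraries or without any 1, 1 for dDAVP over vehicle with control siRNA without control siRNA vehicle replicate 1, and 1 with TAZ siRNA without TAZ siRNA dDAVP replicate 3.

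Over all genes, calls without 1 library ran from 2103 to 2685 (3058 with all libraries) for dDAVP over vehicle with control siRNA, 1118 to 1752 (1719) with TAZ siRNA, 410 to 1435 (1004) for TAZ siRNA over control siRNA with vehicle, 1049 to 1625 (1711) with dDAVP, and 3 to 16 (5) in the interaction. The interaction gave 77 calls with the Wald test and 12 with no filter. With no filter 48.6% of the calls for dDAVP over vehicle with TAZ siRNA were higher, against 59.1% with it, and 44.1% of those for TAZ siRNA over control siRNA with dDAVP, against 53.7%. Without TAZ siRNA vehicle replicate 1, 42.9% of the calls for TAZ siRNA over control siRNA with vehicle were higher, against 50.6% with all libraries. The labels do not say whether replicate numbers pair the samples. Deviations of same-numbered libraries correlated at −0.0430 to 0.0732 and those of other pairs at −0.0578 to 0.0648, which does not settle it. With the replicate block 2983, 1663, 968, 1690 and 6 genes were called in the 5 comparisons, in the order control siRNA, TAZ siRNA, vehicle, dDAVP and interaction. With that block Pde4b missed the threshold for TAZ siRNA over control siRNA with dDAVP (adjusted p = 0.0503), Adcy3 missed it for dDAVP over vehicle with control siRNA (0.0503), and Pde9a (0.0413), Akap12 (0.044) and Prkar2b (0.0392) passed it for TAZ siRNA over control siRNA with vehicle, as did Pkia with dDAVP (0.0334) and the share of XM_006517649 for dDAVP over vehicle with control siRNA (0.0498). The cause of these changes was not tested. No single gene result that was called changed sign. Counted once for each gene, comparison and alternative, 4563 single gene values kept their side of the threshold, 78 passed it only under the alternative and 104 lost it. These are not numbers of stable results, since each gene result enters under several alternatives. The shares in FPKM moved beyond 1 SD in 3 cases and did not in 61. Low counts limit Pde10a, Pde7b and the Pde4d transcripts.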
